A study of Mus musculus with 4 samples.

Results

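NSEB5-2C is a mouse neural progenitor cell (NPC) line grown from the embryonic stem cell line EB5. It was hybridised to 1 of the 4 arrays of the series and was set against the arrays of NS21 and NS195R, NPC lines grown from the embryonic stem cell lines 21 and 195R. NSEB5-2C and NS21 carry the strain label 129/Ola, and NS195R carries 129/Sv. The fourth array, Mixture, held equal masses of RNA from Swiss Webster heart, kidney, thymus, spleen, liver, lung and d11 embryo and serves here only as an outside level. The labels give no treatment, passage or clone number for the NPC lines. A source label of the Mixture sample names a Dox-treated NPC line, in conflict with its title and cell type label. Cy3 was incorporated from 0.25 ug of RNA per sample, and each line was hybridised once. What separates these arrays therefore holds line, strain, culture and technical error together, and these cannot be told apart.

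Neural progenitor cells divide in culture under growth factors and can give rise to neurons and glia. Sox2 and nestin (Nes) mark them, and the regional transcription factors they keep record the part of the neural tube they resemble. Mesenchymal cells such as fibroblasts are known instead for fibrillar collagens, matrix metalloproteinases and factors of the Twist, Prrx and Runx families. A smaller number of cells of a type and less RNA per cell cannot be told apart on these arrays.

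Levels below are log2 processed signals relative to the 75th percentile of the non-control spots of the same array, so that 0 is that percentile. Probes that the scanner software did not call well above background are called dim. Where a gene was dim in one of the lines compared, only a lower limit of the fold can be given (at least N-fold), with the dim signal raised to the weakest signal on that array that was called well above background. A gene was counted as higher in NSEB5-2C when both other lines lay at least 2-fold below it and it was not dim in NSEB5-2C, and as lower when it lay at least 2-fold below both and was dim in neither of them. Of 17785 genes not dim in at least 1 NPC line, 1296 (7.29%) were higher and 1470 (8.27%) were lower. Counts of gene lists below are to be read beside these shares, which a short list can match with few calls. The members just inside the limit lay 2.0008-fold above (Olfr1419) and 2.0002-fold below (Kank3) the nearer line, and those just outside lay 1.9955-fold above (Dpp7) and 1.9999-fold below (BI793804). Higher genes made up 46.9% of those counted, 59.9% with normexp background correction (588 or 3.31% higher and 393 or 2.21% lower) and 66.8% with median scaling. Which direction is the larger thus depends on the processing. The normexp setting adds an offset of 50 to each signal, which shrinks folds of weak genes by construction. With dim values raised to the weakest measured signal, 1111 (6.25%) were higher and 1249 (7.02%) lower, and at 4-fold 651 (3.66%) and 565 (3.18%). Median scaling moved the median of the 13338 genes measured in all 3 lines from 0.01 to 0.36 log2.

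These are sizes, not tested differences. With limma, NSEB5-2C against the mean of the other lines gave 0 genes past an adjusted p of 0.05 in each of the 8 settings run, while before adjustment 554 higher and 468 lower genes had a p under 0.05, and the lowest adjusted p was 0.785, both with the scaling used here. Only 1 residual degree of freedom was available, from the difference between NS21 and NS195R. Of genes with further probes, 317 of 464 such probes (68.3%) made the same call among higher genes and 315 of 616 (51.1%) among lower genes. NSEB5-2C was not the only line to stand apart: 34.0% of genes lay at least 2-fold from NS21, 39.9% from NS195R, and 36.4% lay that far apart between NS21 and NS195R. Non-control spots well above background numbered 23983 in NSEB5-2C and between 24523 and 26840 on the other arrays, and repeated probes of an array had a median SD between 0.0625 and 0.0761 log2.

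**Figure D1:**
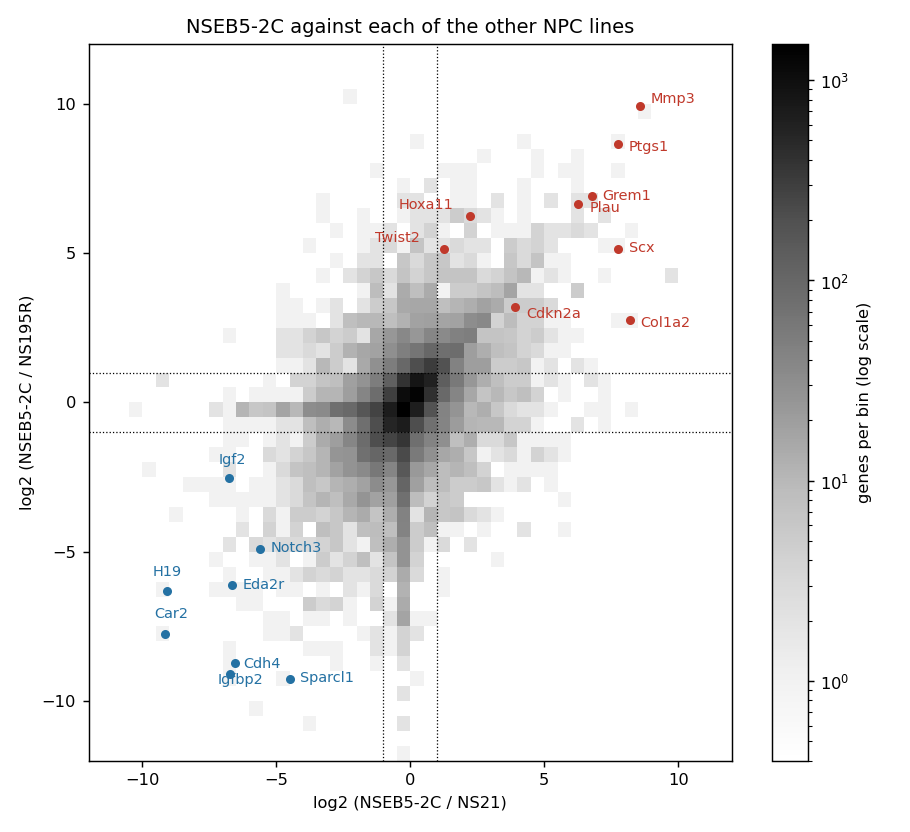
Log2 ratio of NSEB5-2C to NS21 (x axis) and to NS195R (y axis), dim values raised as described, with grey squares counting the 17785 genes, dotted lines at 2-fold and named genes in red where higher and blue where lower. Mmp3 lies at the upper right, Car2, H19 and Igfbp2 at the lower left and Twist2 near the 2-fold line against NS21, and the shared NSEB5-2C array builds in part of the diagonal spread.

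The 4 genes proposed as marks of NSEB5-2C were higher in it than in both other lines, but by very different margins, and with normexp 1 HoxA member was counted in place of 2. Mmp3, which encodes stromelysin-1, a secreted protease of the extracellular matrix, was at 6.03 in NSEB5-2C, -2.56 in NS21, -3.88 in NS195R and -2.87 in Mixture. It thus lay 384-fold above NS21 and 960-fold above NS195R, and its log2 difference from their mean was 9.25 (SE 0.88, limma adjusted p = 0.785). Twist2, a mesenchymal transcription factor, was at 1.31, 0.05 and -3.82 in NSEB5-2C, NS21 and NS195R, the order kept for every triplet of levels below. That is 34.9-fold above NS195R and only 2.38-fold above NS21. Hoxa10 (0.97, -0.31 and dim at -6.98) and Hoxa11 (1.05, -1.19 and dim at -7.21) were at least 71.2-fold and at least 75.5-fold above NS195R, and 2.42-fold and 4.74-fold above NS21. Of these marks Mmp3 alone separated NSEB5-2C widely from both lines, and the other 3 separated NS195R from the 129/Ola lines more than they separated NSEB5-2C from NS21.

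Of 20 matrix metalloproteinases and their TIMP inhibitors tested, 6 were higher and 3 lower, with a median log2 difference of 0.93 from the mean of the other lines (-0.07 over all genes tested). That median was 0.30 with dim values raised and 0.17 with normexp, where 5 were higher and 2 lower. The interstitial collagenase Mmp13 was at 3.0, -1.54 and dim at -5.26, which is 23.3-fold above NS21 and at least 292-fold above NS195R. Mmp10, stromelysin-2, was at 3.11, 0.17 and dim at -6.18, 7.67-fold and at least 315-fold higher. Timp1, an inhibitor of these enzymes, was at 6.65, 4.93 and 0.62, and its other 2 probes made the same call. The gelatinase Mmp2 (3.08, -1.15 and 1.97) and Mmp12 (-4.20, dim in both other lines) were also higher, Mmp12 by a bound under 2-fold.

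Mmp3, Mmp13, Mmp10 and Mmp12 belong to a run of 10 metalloproteinase genes on chromosome 9 in the RefSeq gene table. Mmp1a, a member of this run taken up after its values were seen, was at -3.06 and dim in NS21, NS195R and Mixture, at least 3.97-fold and at least 4.36-fold higher. Membrane-anchored enzymes went the other way: Mmp15 was dim at -5.89 in NSEB5-2C against -2.37 and 3.40, Mmp17 was at -2.57, 0.57 and 0.09, and the membrane collagenase activator Mmp14 was at 2.18, 3.60 and 4.22. The lower members lay at least 7.04-fold, 6.34-fold and 2.68-fold below the nearer line.

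The promoters of the 3 stromelysin and collagenase genes highest above the other lines are shown because each holds a motif of the AP-1 factors near its start. They are the bases directly before the RefSeq starts in GRCm38.p6, all on the + strand, at chr9:7272394-7272513 for Mmp13, chr9:7445702-7445821 for Mmp3 and chr9:7502222-7502341 for Mmp10. Capitals mark TGAGTCA or its reverse complement TGACTCA.
Mmp13: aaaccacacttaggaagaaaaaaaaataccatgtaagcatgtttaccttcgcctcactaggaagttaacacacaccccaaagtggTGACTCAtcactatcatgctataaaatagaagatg
Mmp3: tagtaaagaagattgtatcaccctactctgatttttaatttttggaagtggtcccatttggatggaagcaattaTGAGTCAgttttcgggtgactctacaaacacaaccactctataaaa
Mmp10: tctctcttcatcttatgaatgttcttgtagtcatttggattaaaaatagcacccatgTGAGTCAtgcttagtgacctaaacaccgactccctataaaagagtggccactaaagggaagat
The match begins 35 bases before the start of Mmp13, 46 before that of Mmp3 and 63 before that of Mmp10. Within the 250 bases upstream, on both strands, the motif was present in 5 of the 23 promoters (21.7%) of the 20 genes of the list that matched the promoter table, namely those of these 3, of Mmp12 (44 bases before its start) and of Mmp7. Among all promoters of that source, 1466 of 32851 (4.46%) held it. A match of letters is a description of the sequence and does not show that a factor bound there.

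Fosl1, which encodes the AP-1 subunit Fra-1, had the pattern closest to that of Mmp3 over the 4 arrays. With dim signals raised, its mean absolute log2 difference from Mmp3 was 0.83 after centring. The raised signals include those of Fosl1 in NS195R and Mixture and of Grem1 in both other lines, so the order is a loose description. Levels of Fosl1 were 2.86, -3.22 and dim at -6.21, 67.8-fold above NS21 and at least 265-fold above NS195R, and it was dim in Mixture. The next closest were 3110039M20Rik (0.95), the BMP antagonist gene Grem1 (0.97), Tex19.1 (1.07), which is known from germ cells, and the homeobox gene Dlx2 (1.18). Fos, another AP-1 subunit gene, was in contrast lower, at -4.93, -0.80 and -2.81, and the growth factor response gene Egr1 was at 0.33, 1.49 and 3.09. In the list of 19 FGF and EGF response genes 2 were higher, Fosl1 and Ier3, and 2 were lower, Fos and Egr1. Over all genes tested the shares were 7.29% and 8.27%.

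Plasminogen activation, the other main route of secreted proteolysis, had 3 of 8 members tested counted, 2 higher and 1 lower, or 1 and 1 with normexp. Plau, the urokinase gene, was at 2.43, -3.84 and -4.19, 77.4-fold and 98.8-fold higher, and its second probe made the same call. Serpinb2, an intracellular inhibitor of urokinase, was at -3.70 and dim in both other lines. Serpine2, which encodes the protease inhibitor nexin-1, was at -2.35, 1.55 and 4.52, 14.8-fold below NS21 and 116-fold below NS195R.

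**Figure D2:**
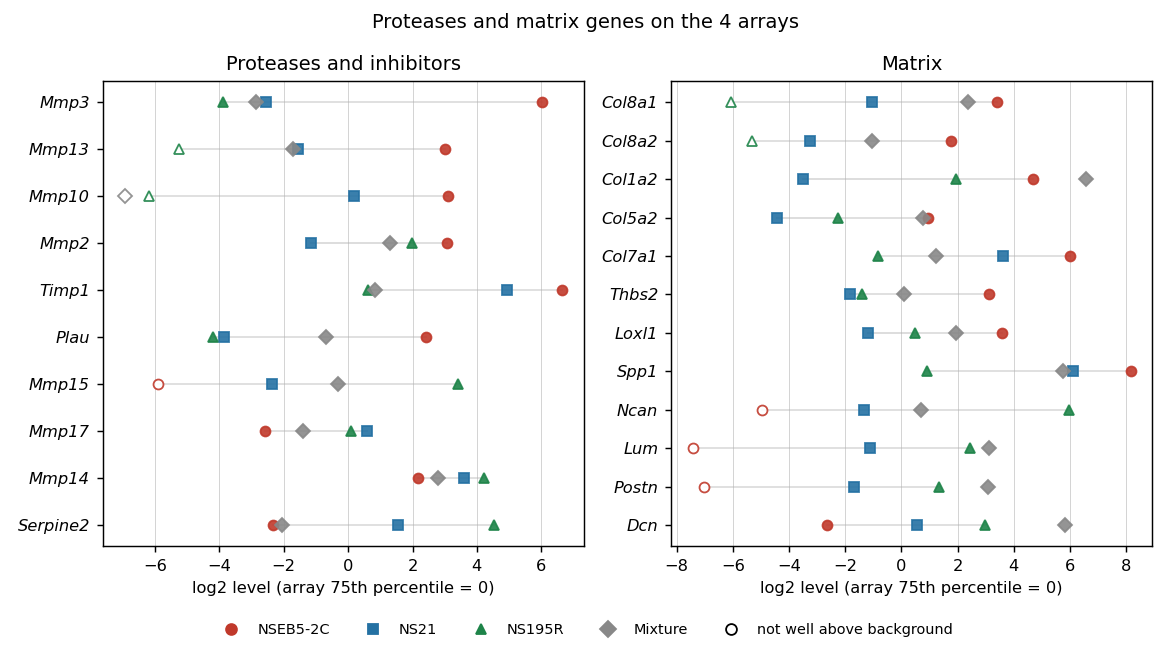
Log2 level on each of the 4 arrays (x axis, 75th percentile of the array = 0) for proteases and their inhibitors at left and matrix genes at right, with open symbols where the gene was dim. The red NSEB5-2C points lie to the right of both other NPC lines for the upper genes of each panel, and to the left for Mmp15, Mmp17, Mmp14, Serpine2, Ncan, Lum, Postn and Dcn.

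Collagens were shifted towards NSEB5-2C, with 11 of 31 higher, 3 lower (9 and 1 with normexp) and a median log2 difference of 0.49. Col8a1 (3.41, -1.03 and dim at -6.08) and Col8a2 (1.77, -3.24 and dim at -5.31), the chains of the short-chain collagen VIII, were 21.8-fold and 32.2-fold above NS21. Col5a2, a chain of fibrillar collagen V, was at 0.95, -4.44 and -2.25. Col12a1, a fibril-associated collagen, was at -1.94, dim at -7.27 and -4.82. The collagen I chain Col1a2 was at 4.70, -3.50 and 1.94, so that NSEB5-2C was 294-fold above NS21 and 6.76-fold above NS195R, while its partner chain Col1a1 was at 2.37, 0.65 and 2.16 and did not count. The log2 difference of Col1a2 from the mean of the other lines, 5.48, was 2.56 with the mean of its probes. Mixture, which holds whole organs, stood above NSEB5-2C for Col1a2 at 6.56. Lower in NSEB5-2C were Col6a3 (-3.20, -0.22 and 2.57), Col11a2 and the dim Col23a1.

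Non-collagen matrix genes did not follow as a block, since 5 of 37 were higher and 9 lower. Among the higher ones Fbln5, which helps to assemble elastic fibres, was at 3.14, dim at -5.80 and -2.64, but its log2 difference from the mean of the other lines, 7.36, was 2.40 with the mean of its probes. Thbs2, an adhesive glycoprotein gene, was at 3.13, -1.83 and -1.39. The collagen and elastin cross-linking enzymes Loxl1 (3.57, -1.19 and 0.50) and Lox (-1.94, -4.30 and dim at -7.29) were higher as well, as was osteopontin, Spp1, at 8.16, 6.12 and 0.91. Among the lower ones were the small leucine-rich proteoglycans Lum (dim at -7.42, against -1.11 and 2.45) and Dcn (-2.63, 0.54 and 2.96), which regulate collagen fibrils, and Postn (dim at -7.04, against -1.69 and 1.32). Sparcl1, a glycoprotein made by glia, was at -2.47, 2.04 and 6.78, and the brain proteoglycan Ncan was dim at -4.96 against -1.31 and 5.95. The median of the list was -0.37.

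Integrin subunits, the matrix receptors, had 6 of 20 members higher and 2 lower, or 4 and 0 with normexp and 6 and 0 with quantile normalization. Itgb7 was at 0.81, -2.60 and dim at -5.84, Itgb3 at 1.10, -1.62 and -4.17, and Itga10, part of a collagen receptor, at -2.26 and dim in both other lines. The hyaluronan receptor gene Cd44, listed as an astrocyte marker, was at 5.21, 2.58 and 2.00, and S100a4, a calcium-binding protein gene used as a fibroblast marker, was at 8.04, 4.67 and 3.69. Fibroblast and smooth muscle markers as a whole were divided, with 3 of 21 higher (S100a4, Col1a2 and Myl9) and 3 lower (Dcn, Lum and Postn).

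Transcription factors of mesenchyme and skeleton held the largest share of higher members among the 42 gene lists: 14 of 34 were higher and 5 lower, with a median log2 difference of 1.05, or 0.24 with normexp. Foxf2 was at -0.04 and dim in both other lines, at least 31.0-fold and at least 35.4-fold higher. Six2, a homeobox gene of kidney precursors, was higher at -0.93, dim at -5.52, and -4.27. Snai2, a repressor of epithelial genes that acts in epithelial to mesenchymal transition, was at 3.21, 0.09 and -0.32, 8.71-fold and 11.5-fold higher. Prrx1, a factor of limb and head mesenchyme, was at 2.39, -0.70 and 0.28, and each of its 4 other probes made the same call.

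The skeletal factor Runx2 was at 0.29, -1.68 and -3.80, and Runx1 at 0.55, -1.28 and -3.98. Scx, a factor of tendon precursors that was not on the list and is among the 15 genes farthest above, was at 5.23, -2.54 and 0.08, 218-fold above NS21 and 35.5-fold above NS195R. The lower members were factors of somites and other mesoderm: Meox2 was at -4.65, -1.59 and -0.14, Alx4 dim at -7.40 against -2.40 and -2.37, Tbx2 at -2.69, 0.77 and -0.28, Meox1 dim at -7.45 against -2.93 and -0.10, and Tcf15 dim at -7.30. With normexp 11 members were higher and 1 lower. Twist1, the relative of Twist2, was at 1.20, -1.80 and 0.32, 8.01-fold above NS21 but 1.84-fold above NS195R, and did not count.

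**Figure D3:**
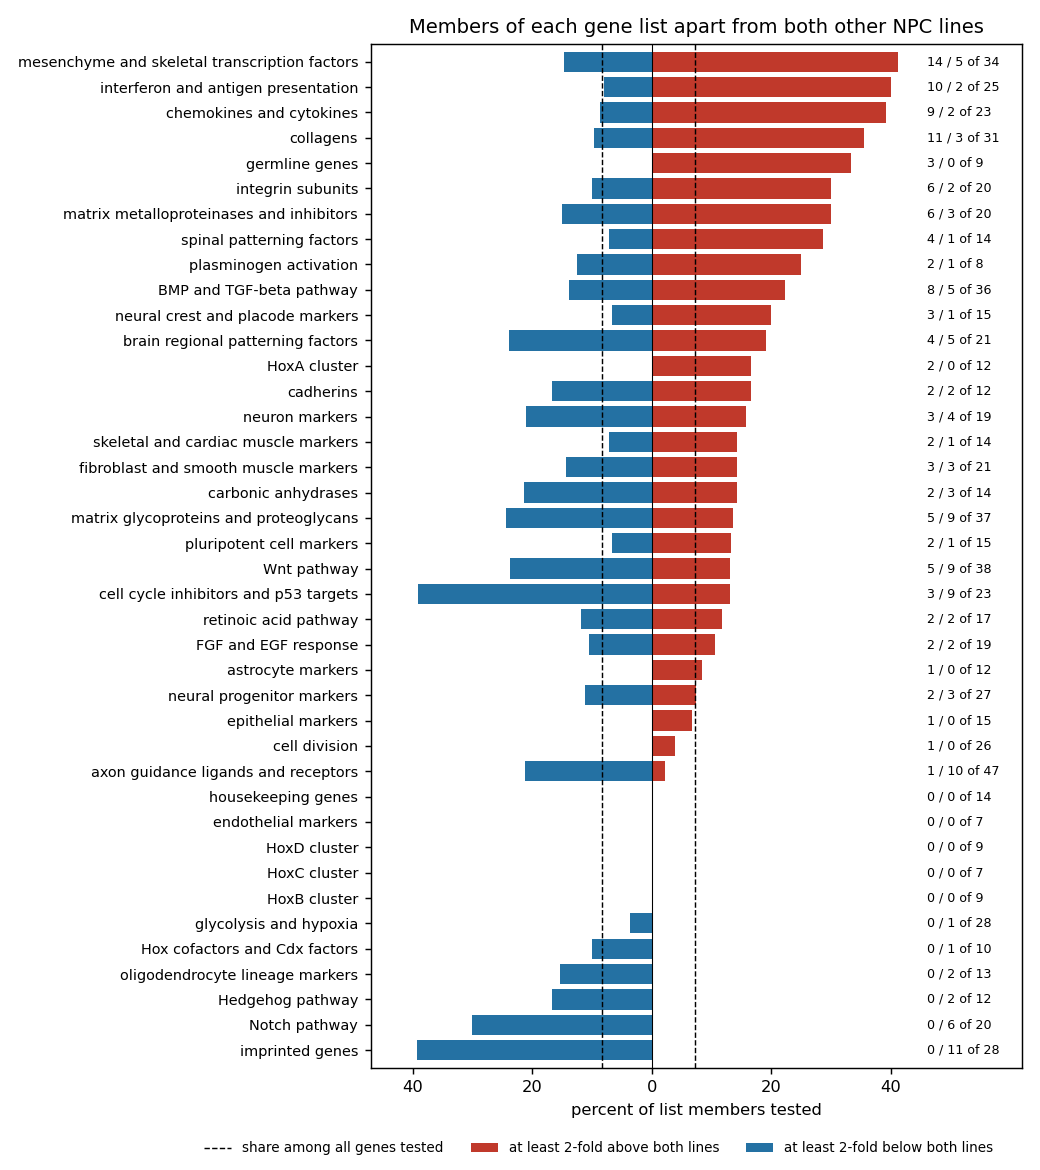
Percent of the tested members of each gene list that lay at least 2-fold above (red, right) or below (blue, left) both other NPC lines, with counts at the right and dashed lines at the shares among all genes tested, 7.29% and 8.27% (lists with at least 7 tested members). Mesenchyme factors, interferon genes, chemokines and collagens lie at the top, and imprinted and Notch pathway genes at the bottom.

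Hox genes encode position along the body axis in 4 clusters, with higher numbers marking more posterior positions. In NSEB5-2C the clusters differed. In HoxA, 11 of 12 tested members (Evx1 included) were not dim in NSEB5-2C, and as many in NS21, against 7 in NS195R. The anterior members Hoxa2 to Hoxa5 lay within 3.26-fold of both other lines, with Hoxa3 at -3.20, -3.31 and -3.02. Hoxa7 (1.69, 2.81 and -3.33) and Hoxa9 (-1.55, -0.39 and dim at -6.62) were near NS21, and Hoxa10 and Hoxa11 above it as described, whereas Hoxa13 was barely detected at -4.33 and dim in both other lines.

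HoxB, HoxC and HoxD had 0 members higher and 0 lower, because NSEB5-2C lay between the others or beside NS195R. In HoxB, Hoxb9 was at -4.61, 4.86 and dim at -7.06, 707-fold below NS21, and Hoxb6 at -3.08, 3.76 and dim at -5.40, 115-fold below. Hoxb7 was at -0.59, 2.18 and dim at -5.98, at least 24.2-fold above NS195R. In HoxC only 1 of 7 tested members, Hoxc4 at -3.32, -3.40 and -3.78, was not dim in NSEB5-2C, while all 7 were measured in NS21. Hoxc9 was dim at -5.27 against 1.50 in NS21, at least 103-fold lower, and Hoxc6 dim at -7.38 against 1.01. In HoxD, Hoxd4 was at -2.72, 1.95 and -2.38, Hoxd9 at -2.55, 0.98 and -3.42, and Hoxd10 dim at -6.64 against 0.47 in NS21.

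Posterior HoxA expression in NSEB5-2C was therefore not accompanied by HoxC or HoxD expression at the levels of NS21. Cdx2, a regulator of posterior Hox genes, was dim at -5.40 in NSEB5-2C and at 4.91 in NS21, at least 1093-fold lower. The Hox cofactor Meis1, at -1.45, -1.06 and -0.85, lay within 2-fold of both lines. Pbx4, at -3.02, -0.75 and -0.79, was the 1 lower member of 10 cofactors and Cdx genes.

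**Figure D4:**
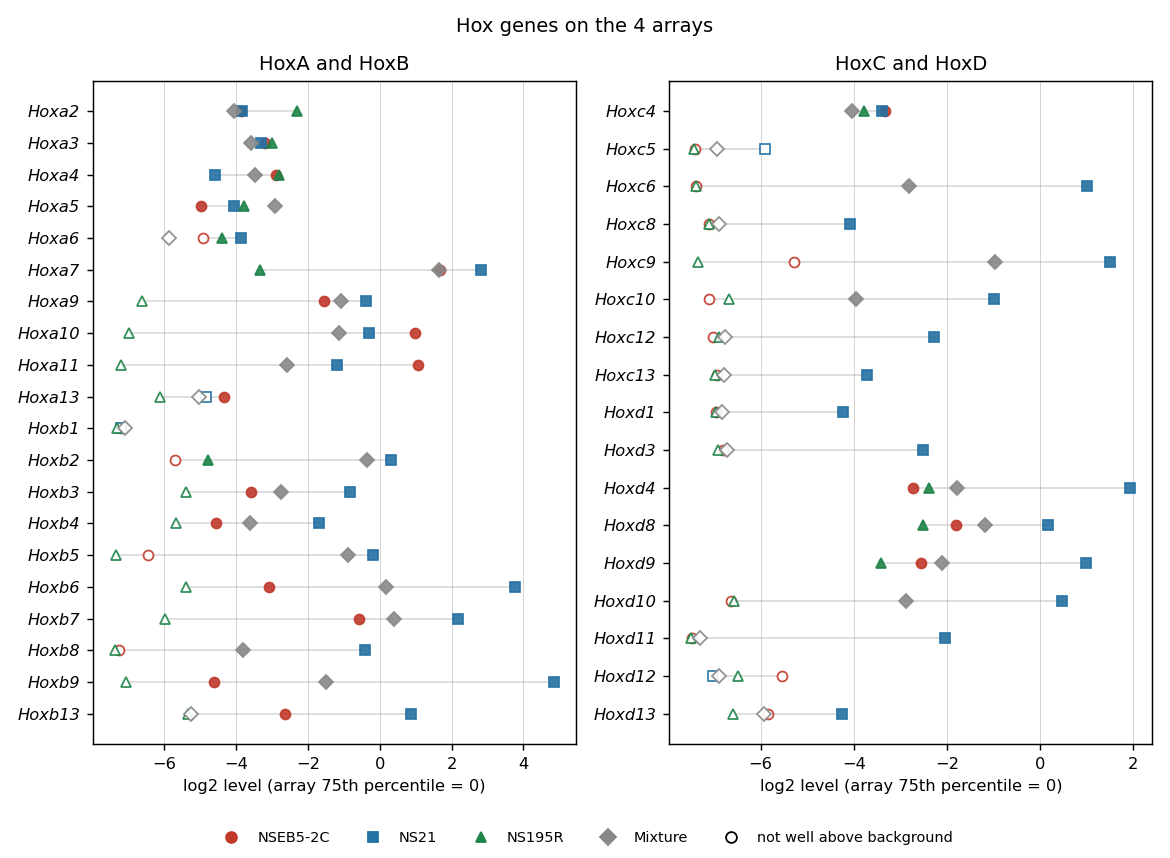
Log2 level (x axis) of Hox genes on the 4 arrays, with open symbols where the gene was dim. For Hoxa10 and Hoxa11 the red NSEB5-2C points lie farthest right, and for most HoxB, HoxC and HoxD genes the blue NS21 squares do, with NSEB5-2C to their left.

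The labelled cell type was checked on 27 neural progenitor markers, of which 21 were not dim in NSEB5-2C, 17 in NS21 and 27 in NS195R. Vim, an intermediate filament gene, was at 6.99, 6.89 and 6.44, and Nes at 3.53, 4.02 and 5.44. Sox2 was at 0.87, dim at -5.11 and 2.68, so NSEB5-2C had at least 60.5-fold more than NS21 and 3.53-fold less than NS195R. The radial glia gene Fabp7 and the bHLH factor Olig2 were dim in NSEB5-2C and in NS21, at -5.81 and -5.80 and at -7.32 and -6.77, and at 7.19 and 4.42 in NS195R. In this list 2 members were higher, Fut4 among them, and 3 lower, Emx2, Lhx2 and Sox3, shares near those over all genes.

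Regional factors of the brain were mixed in NSEB5-2C. Dlx2 (2.07, -4.53 and -3.55) and Dlx1 (-0.10, dim at -6.44 and dim at -6.15), neighbouring homeobox genes of ventral telencephalon, were 49.2-fold and at least 31.1-fold above the nearer line. Gad2, an enzyme of GABA synthesis in the interneurons that these factors help to specify, was low at -3.15 but dim in both other lines. Six3, of the anterior forebrain, was at -2.34, dim at -7.13 and -3.81.

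Dorsal telencephalic factors were lower instead, with Emx2 dim at -7.21 against -2.29 and -2.10 and Lhx2 at -2.43, -1.01 and 1.81. So were factors of the hindbrain and its border, Gbx2 (dim at -5.88 against -0.90 and -0.93) and Egr2 (-2.65, -1.11 and 0.73). Among 14 spinal patterning factors, Foxa2, a floor plate and endoderm factor, was at 2.04, -1.93 and -3.14, Isl1, a motor neuron factor, at -2.06 and dim in both other lines, and Nkx6-2 lower at -4.24, -1.08 and -1.12. In all, 4 of 21 brain factors were higher and 5 lower, and 4 of 14 spinal factors were higher and 1 lower. With normexp the brain factors had 3 higher and 2 lower and the spinal factors 2 and 1.

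Markers of other cell types that such a culture could hold were read in the same way, beside 7.29% higher and 8.27% lower over all genes tested. Of 15 neural crest and placode markers, 3 were higher, among them Tfap2a (-0.13, -4.67 and -4.94) and Tfap2b, and Tfap2c was lower at -4.39, 2.90 and -2.84. Neuron markers had 3 of 19 higher (Dlx2, Gad2 and the neurofilament gene Nefl at 0.56, -0.67 and -0.65) and 4 lower, among them Gap43, a growth cone protein gene, at -1.73, 0.30 and 0.62 and Stmn3, dim at -7.04 against -3.65 and 0.09. Oligodendrocyte lineage markers had 0 of 13 higher and 2 lower, among them Bcas1, dim in NSEB5-2C.

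Pluripotent cell markers had 2 of 15 higher, Klf4 (4.31, 0.82 and 2.01) and Zfp42 (-3.82, dim in both other lines), and 1 lower, Dppa5a. Endothelial markers had 0 of 7 in either direction, with Kdr and Cldn5 dim in NSEB5-2C. Of 15 epithelial markers tested, 1 was higher and 0 were lower, with a median log2 difference of 0.62. That median was -2.26 against NS21 alone and 3.40 against NS195R alone. Epithelial markers not dim numbered 12 in NSEB5-2C, 13 in NS21 and 3 in NS195R. Of 5 myeloid markers tested, Cd14, a receptor for bacterial lipids, was at -0.20, dim at -5.43 and -3.38, and the complement gene C1qb at -2.95, -4.09 and -3.96, while Lyz2 was dim at -7.36. Skeletal and cardiac muscle markers had 2 of 14 higher, Tnnt2 (2.70, 0.75 and dim at -6.15) and Nkx2-5, and 1 lower, Myl4 (-3.60, -2.44 and -1.67), with a median of -1.28. Whether other cell types in the culture take part in the mesenchymal and matrix differences was not tested.

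Cell cycle inhibitors and p53 targets, 23 genes, had 3 higher and 9 lower members and a median log2 difference of -1.07. The higher members were Cdkn2a and Cdkn2b of the INK4 locus and Trp53, and the lower ones included several known targets of p53. Other members, the target Mdm2 among them, were counted in neither direction. Cdkn2a, which encodes the tumour suppressors p16 and p19Arf, was at 3.70, -0.23 and 0.51 and dim in Mixture at -6.48, 15.2-fold above NS21 and 9.13-fold above NS195R. Its neighbour Cdkn2b, which encodes p15, was at 6.08, 2.98 and 2.69, 8.57-fold and 10.5-fold higher. Trp53 itself was at 2.89, 0.77 and 0.03 on its brightest probe, 4.38-fold and 7.28-fold higher, but its other probe did not make the call.

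Cdkn1a, the p21 gene and a main target through which p53 stops the cell cycle, was at 0.70, 4.26 and 4.0, 11.8-fold below NS21 and 9.82-fold below NS195R, and near the 0.56 of Mixture. Ccng1, another p53 target, was at 0.47, 5.09 and 3.71, 24.7-fold and 9.48-fold lower, and Trp53inp1 at -0.39, 4.76 and 3.82, 35.5-fold and 18.5-fold lower, and a second probe of each made the same call. Eda2r, a death receptor gene induced by p53, was dim at -6.19 against 1.46 and 0.94, at least 70.0-fold below the nearer line, and both other probes made the same call.

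The remaining lower members, named after their values were seen, were Zmat3 (-0.18, 2.93 and 2.26), Sesn2 (2.92, 5.35 and 4.63), Phlda3 (3.77, 6.27 and 5.10), Bax (2.94, 4.24 and 4.10) and Cdkn1c. Not every target was low: Mdm2, the ubiquitin ligase that degrades p53, was at 1.41, 3.70 and 1.61, 4.89-fold below NS21 but 1.15-fold below NS195R. Gadd45g was at 4.68, 4.01 and 3.92. With normexp 3 members were higher and 8 lower, and with median scaling 3 and 6. Of 26 cell division genes 1, Kif23, was higher and 0 lower, with a median of 0.62. With median scaling 8 were higher, with quantile normalization 0, and 0 were lower in either.

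**Figure D5:**
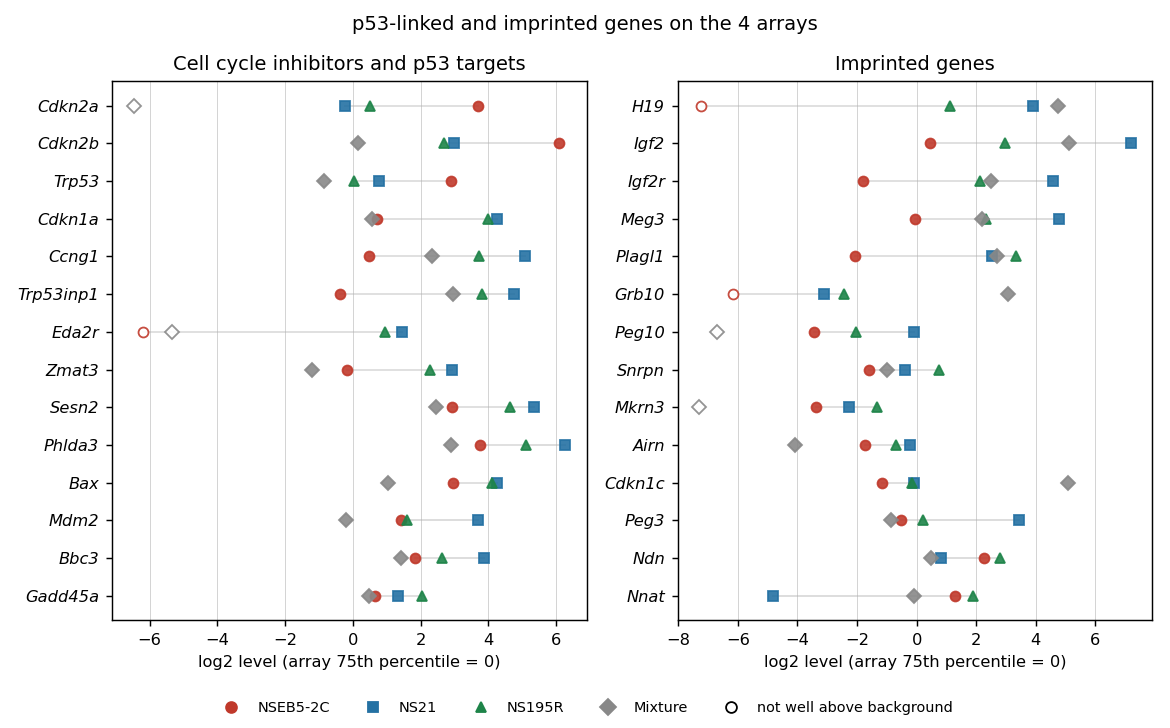
Log2 level (x axis) on each of the 4 arrays for cell cycle inhibitors and p53-linked genes at left and imprinted genes at right, with open symbols where the gene was dim. The red NSEB5-2C points lie right of the other lines for Cdkn2a, Cdkn2b and Trp53 and left of them from Cdkn1a to Bax, and left of them from H19 to Cdkn1c.

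Imprinted genes, which are transcribed from 1 parental copy and include many regulators of fetal growth, had 0 of 28 members higher and 11 lower, with a median log2 difference of -1.40. H19, a maternally expressed noncoding RNA, was dim at -7.24 in NSEB5-2C against 3.89 and 1.12, at least 541-fold below NS21 and at least 79.5-fold below NS195R. Igf2, the paternally expressed growth factor gene beside it, was at 0.43, 7.19 and 2.97, 108-fold and 5.8-fold lower. Igf2r, which clears that factor, was at -1.79, 4.56 and 2.13, and the growth-arrest factor gene Plagl1 at -2.06, 2.53 and 3.33.

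Meg3, a maternally expressed noncoding RNA on chromosome 12, was at -0.04, 4.79 and 2.34, and all 4 of its other probes made the same call. Grb10, Peg10, Snrpn, Mkrn3, Airn and Cdkn1c, named after their values were seen, made up the rest, with Cdkn1c only 2.10-fold and 2.01-fold lower. Both maternally expressed genes (H19, Meg3 and Igf2r) and paternally expressed ones (Igf2, Peg10 and Snrpn) were among them. Others did not count: Gnas (4.54, 4.34 and 4.79) and Sgce (4.72, 5.14 and 4.93) lay within 2-fold of both lines, and Ndn (2.28, 0.82 and 2.81) and Nnat (1.29, -4.83 and 1.90) lay above NS21. With normexp 5 were lower, with quantile normalization 8 and with median scaling 6, and 0 were higher in each.

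Notch signalling, in which ligands on one cell bind receptors on the next, whose cleavage then turns on targets that hold progenitors undifferentiated, had 0 of 20 members higher and 6 lower, or 1 lower with normexp. The receptor gene Notch3 was at -2.46, 3.15 and 2.43, 49.0-fold and 29.8-fold lower, while Notch1 (-1.05, -0.20 and 0.27) and Notch2 (1.67, 0.94 and 0.59) did not count. The ligand gene Dll3 was dim at -6.11 against -3.32 and -0.49, and Lfng, which modifies the receptors, was at -4.82, -2.87 and -1.17. The target gene Hey1 was lower at -1.91, -0.50 and 0.76, whereas Hes1 was at -0.90, -1.77 and -0.84. Notch4 was also lower, and Dner, a further ligand gene, was dim in NSEB5-2C.

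Wnt pathway genes had 5 of 38 higher and 9 lower, beside 7.29% and 8.27% over all genes tested. With normexp the counts were 3 and 3. Among ligands Wnt7b was at 2.99, 1.08 and 0.69, while Wnt5a was at -4.25, -0.76 and -1.93 and Wnt4 at -4.85, 0.39 and -3.23. The receptor gene Fzd10 was dim at -7.46 against 2.24 and 0.82, at least 64.5-fold below the nearer line, while the receptor gene Fzd6 was higher at -0.30, -1.52 and dim at -6.35. The secreted antagonist Dkk2 was higher at 2.74, -2.24 and dim at -7.48, and so was Dkk3 at 0.34, -1.76 and -2.26. Axin2, a feedback gene switched on by beta-catenin, was dim at -7.24 against -2.24 and -1.90, and Nkd1, another feedback gene, was at -2.18, -0.34 and 1.08. Sp5, which is likewise known as a Wnt target, was among the 15 genes farthest below, at -4.43, 0.80 and 0.37.

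In the BMP and TGF-beta pathway 8 of 36 were higher and 5 lower, or 6 and 4 with normexp. The antagonist gene Grem1 was at 1.72 and dim at -5.67 and -7.27, at least 110.0-fold above the nearer line. The activin chains Inhba (0.02, -3.76 and -3.14) and Inhbb (3.04, -1.19 and 0.59) and the latent TGF-beta binding protein gene Ltbp1 (2.13, -2.27 and -4.09) were higher. Ligand genes went both ways: Bmp8b (0.49) and Bmp6 (-2.38) were dim in both other lines, at least 46.8-fold and at least 6.4-fold above the nearer one, while Bmp7 was dim at -7.05 against 1.49 and -0.36, and Tgfb2 was at -2.57, 2.01 and -0.32. Of the BMP target genes, Id2 was at -1.29, 2.35 and 1.89 and Id3 at 3.20, 4.44 and 4.41, 9.07-fold and 2.32-fold below the nearer line, whereas Msx3 was at -3.81 and dim in both other lines.

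Retinoic acid pathway genes had 2 of 17 higher and 2 lower, or 2 and 1 with normexp, beside 7.29% and 8.27% over all genes tested. Their median log2 difference was -0.20. Crabp1, a cellular retinoic acid binding protein gene, was at 4.80, dim at -4.72 and 0.75, at least 736-fold above NS21 and 16.6-fold above NS195R. The genes of the synthesising enzymes Aldh1a2 (-2.74, -0.14 and -1.18) and Aldh1a3 (-1.87, 1.29 and -0.29) were lower. Hedgehog genes had 0 of 12 higher and 2 lower, beside 7.29% and 8.27% over all genes tested. The lower ones were the ligand gene Dhh (-3.56, -0.17 and 1.18) and the coreceptor gene Gas1 (-1.99, 0.15 and 1.76).

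Axon guidance genes had 1 of 47 higher, Sema5a at 2.23, -1.61 and -0.04, and 10 lower. Epha5, an ephrin receptor gene, was dim at -6.32 against 0.14 and 0.61, Sema6a dim at -5.27 against -1.65 and 0.43, and the receptor gene Robo2 dim at -7.49 against -3.17 and -2.55. Plxna2, a semaphorin receptor gene, was at 0.62, 2.39 and 2.57, and both of its other probes made the same call. With normexp 1 was higher and 5 lower. Among cadherins, the neural adhesion gene Cdh4 was dim at -5.72 against 1.53 and 3.89, at least 105-fold and at least 541-fold lower, and Cdh22 dim at -7.44 against -0.46 and 0.93, while Cdh13 was higher at 3.13, -1.30 and 1.99.

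Chemokines and cytokines had 9 of 23 higher and 2 lower. Ccl2, which attracts monocytes, was at 4.59, -0.14 and 1.57, 26.5-fold and 8.1-fold higher. Cxcl12, the ligand of the receptor Cxcr4, was at 1.70, -2.67 and -1.46, and Ccl5, which attracts lymphocytes, at -0.68, -4.11 and -4.25. The cytokine gene Il11 was at -0.51, -2.67 and dim at -5.73, and Il33 was lower at -2.16, -0.34 and -0.90. The list gave 5 higher and 0 lower with normexp.

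Interferon and antigen presentation genes had 10 of 25 higher and 2 lower, or 3 and 0 with normexp. The class I heavy chains H2-K1 (3.89, 1.62 and 1.27) and H2-D1 (3.35, 0.83 and 0.19) were 4.82-fold and 5.73-fold above NS21, and the membrane protein gene Ifitm3, which restricts viral entry, was at 4.71, 2.05 and 0.61. With the mean of probes the log2 difference of H2-D1 from the mean of the other lines was 0.72 in place of 2.84. H2-K1 and H2-D1 share much sequence, so their probes may not read them apart. Ifi44 was at -2.62 and Ifit1 at -2.71, both dim in NS21 and NS195R. Tap1, which loads peptides on class I, was lower and dim at -5.51 against -1.37 and -1.93, and Psmb9, a subunit of the immunoproteasome, was at -3.76, -2.73 and -1.98. In Mixture, H2-K1 was higher still at 7.47, and Ifitm3 was near its NSEB5-2C level at 4.53.

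The carbonic anhydrase II gene Car2 lay farthest below both lines among genes measured in all 3. It was at -4.34 in NSEB5-2C, 4.83 in NS21, 3.43 in NS195R and 4.10 in Mixture, 575-fold and 217-fold lower. The family did not share this pattern, since Car13 (0.87, -3.75 and -0.95) and the mitochondrial Car5b (0.33, -2.52 and -3.39) were higher and the other lower members, Car1 and Car14, were dim. Igfbp2, a secreted binding protein of insulin-like growth factors, was at -1.13, 5.40 and 7.58, 92.5-fold and 420.0-fold lower, and Igfbp5 at -3.63, 0.93 and 3.65. The ion pump regulator gene Fxyd6 was at -4.57, 1.01 and 5.56, and Pou3f1, a POU factor of neural progenitors and glia, at 0.19, 4.61 and 5.93. Tnfrsf19 was dim at -6.55 against 1.65 and 3.22, at least 114-fold below the nearer line, first among genes with only a bound.

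The other genes of this rank farthest below were Unc13b, Sash1, Mpped2, Celsr1, Aplp1 and 1700007K13Rik, each between 20.8-fold and 36.7-fold below the nearer line. Farthest above, after Mmp3, came Ptgs1, at 3.65, -4.09 and -5.01, and 3110039M20Rik, at 2.26, -4.96 and -4.13. Lgals3, the galectin-3 gene, was at 2.90, -3.25 and -4.15, 71.1-fold and 133-fold higher, and near the 3.03 of Mixture. Il4ra, a cytokine receptor gene, was at 1.71, -3.29 and -3.16, and Cbr2, a carbonyl reductase gene, at 3.75, -0.90 and -2.22.

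Set beside Mixture, 661 of the 1296 higher genes (51.0%) lay at least 2-fold above it in NSEB5-2C and 260 lay at least 2-fold below. Of the 1470 lower genes, 64 lay above and 777 below. Both sets were picked by their level in NSEB5-2C, which builds in a lean towards that side. The share over all genes tested was not counted. Mmp3, Fosl1 and Dlx2 thus stood above both the other lines and the tissue pool, while Col1a2 and H2-K1 stood above the other lines only.

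By chromosome, the median log2 difference of NSEB5-2C from the mean of the other lines was -0.43 over the 450 genes of chromosome 14 measured in all 3 lines, against 0.01 over all 13338. The chromosome 14 median was -0.51 against NS21 and -0.33 against NS195R, and 15.6% of its genes were lower and 4.89% higher. Medians of the other chromosomes lay between -0.14 (chromosome 10) and 0.16 (chromosome 19). The chromosome 14 value was -0.38 with quantile normalization, -0.29 with normexp and -0.07 with median scaling, where all genes were at 0.36. Mmp14, Wnt5a and Tnfrsf19 of the genes above lie on chromosome 14 and were lower, but so do Plau, Lgals3 and Nefl, which were higher. No cause of this shift was tested.

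The X-linked Xist was dim in all 3 NPC lines and at 1.47 in Mixture. The Y-linked genes Ddx3y (-0.95, dim at -7.15, and -0.89) and Eif2s3y (0.15, dim at -7.07, and 0.48) were measured in NSEB5-2C and NS195R and dim in NS21. Hprt, a purine salvage enzyme gene on the X chromosome, was at -1.29, -2.40, 3.33 and, in Mixture, 4.03, so NSEB5-2C was 24.6-fold below NS195R and 2.15-fold above NS21. Of 14 housekeeping genes 0 were higher and 0 lower, with a median of 0.22 (0.58 with median scaling).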

How the data were processed

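Per the file headers, the deposited 1-colour intensity values were written by Agilent Feature Extraction, version 9.5.3.1, after background subtraction, with quality flags per spot. The series' value table repeated them at all 45018 features, with 0 columns of other samples. Slide and scan were common to all 4 arrays. Processed intensity was taken to log2 and each array's 75th percentile over 43379 non-control spots was subtracted. Outlier-flagged spots were left out, 245 repeated probes were averaged, and the brightest of the probes of a gene was kept. Symbols came from the RefSeq gene table of GRCm38.p6 for all but 8440 of 41174 probes, which kept the name in the files. Chromosomes are those of the files, with a genome build not given in the sources used here.

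Of 27657 genes or transcripts, 17785 were tested, 14332 with a symbol. NSEB5-2C was compared with the mean of the other lines in limma 3.58.1 (R 4.3.3) by lmFit and eBayes with two-sided p-values and Benjamini-Hochberg adjustment. Named were the 4 given markers, the 15 genes farthest from the nearer line each way, 10 each way known by a bound, up to 4 members per list each way, every Hox gene and the 5 most like Mmp3. Some genes picked by this rule are not reported here. Further genes were named after their values were seen, as were members of lists given as not counted. The members, lists and rules were chosen with earlier results of these data known. The number of arrays limits the precision.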

Additional observations from a re-analysis of the deposited data

How the results depend on the processing

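The counts of genes at least 2-fold from both lines moved most with normexp and its offset of 50, and with the lines compared. With normexp, 588 were higher and 393 lower. Median scaling gave 1989 higher (990 lower). Among genes well above background in all 3 lines, 614 were higher and 870 lower. At 4-fold the counts were 651 and 565, and at 1.5-fold 2277 and 2461. With 1 of the other lines left out, between 2311 (without NS195R) and 2867 (without NS21) were higher and between 3293 and 3929 lower, counts that can only rise when fewer lines must be passed. Quantile normalization, the mean of probes, no filter and raised dim values kept both counts within 1.5 times. limma called 0 genes in every setting run. Of 246 named genes, 130 moved by more than the spread between NS21 and NS195R with normexp, 53 with median scaling, 42 with the mean of probes and 25 with quantile normalization, and no counted gene changed direction in these 4 settings. With the mean of probes Postn was at -3.50 (-6.86 with the brightest probe), Dcn at -2.19 (-4.39), Alx4 at -2.11 (-5.02), Col6a3 at -1.93 (-4.37), Sema6a at -2.35 (-4.65), Car5b at 1.33 (3.28) and Trp53 at 1.40 (2.50) in log2 difference. The chromosome 14 settings were chosen after seeing the data. Of the higher genes 489 were dim in both other lines and of the lower genes 600 were dim in NSEB5-2C, so signal over background limits their folds to bounds. No paired analysis was possible because each line was hybridised once, which leaves no arrays to pair.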

Other observations

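Ptgs1, Ptgs2 and Ptges, genes of prostaglandin synthesis that were picked after their high values were seen and stand for no list, gave the following values. Ptgs1, the cyclooxygenase-1 gene, was 215-fold above NS21 and 405-fold above NS195R. Ptgs2, the inducible cyclooxygenase gene, was at 0.05, -3.51 and dim at -6.84, 11.8-fold and at least 37.6-fold higher, and its other probe made the same call. Ptges, which encodes the prostaglandin E synthase acting after them, was at 0.48, -3.15 and -4.61, 12.4-fold and 34.1-fold higher. Mixture had Ptgs1 at 1.04 and Ptges at -1.31, and Ptgs2 was dim there.

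Receptor and acute-phase genes chosen in the same way followed. Osmr, a receptor gene for oncostatin M, was at 0.34 and dim in both other lines, at least 42.1-fold above NS21, and was at 0.60 in Mixture. Saa3, a serum amyloid gene, was at -0.06 and dim in both other lines, at least 31.9-fold above NS21, and was at 4.02 in Mixture. Ddit4l, an inhibitor of mTOR signalling, was lower and dim at -4.80 against 1.40 and 1.35, at least 70.6-fold below the nearer line, and both other probes made the same call. With 1 array per line these remain descriptions of the arrays.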
